A study of Mus musculus with 8 samples.

Results

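The comparison described here is the difference of the interferon-γ (IFNγ) response between 2 genotypes of MC38 cells, a mouse colon adenocarcinoma line. All 8 RNA-seq samples of the series enter it, in 4 groups of 2: wild-type control cells given IFNγ at 20 ng/ml over 4 h, DENR KO cells with the same IFNγ, untreated control cells and untreated DENR KO cells. The DENR KO cells are a stable population made with lentiviral Cas9 and sgRNA, and the labels do not say whether samples 1 and 2 of a group came from separate lines. For each gene the response of the control cells (log2 of IFNγ over untreated) was subtracted from the response of the DENR KO cells, so a negative difference means a smaller rise, or a deeper fall, in DENR KO cells.

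IFNγ binds the receptor chains IFNGR1 and IFNGR2, which activate the kinases JAK1 and JAK2. Their signal reaches target promoters that hold the gamma-activated site (GAS). Early targets such as the transcription factor IRF1 then act through the interferon-stimulated response element (ISRE), so that a second wave of genes follows the first, among them guanylate-binding proteins, immunity-related GTPases, chemokines and the antigen presentation machinery. DENR is a factor of translation reinitiation and ribosome recycling.

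The short sequences that follow come from the promoters of 8 genes whose responses are given here, and they show the 2 elements through which this pathway acts. They are from RefSeq (GRCm38.p6), read 5′ to 3′ along the gene's strand, with the match to GAS (TTCNNNGAA) or ISRE (GAAA, any 2 bases and GAAA, on either strand) in capitals and its start relative to the transcription start. The Igtp and Irgm2 stretches are shown together because these neighbouring GTPase genes share 28 of these 29 letters. Only Igtp passed the test of a difference, but that of Irgm2 had the same sign (-0.39 ± 0.14, SE). The 2 genes were not tested against each other.
Irf1, GAS at -90, chr11:53769914-53769942, plus strand: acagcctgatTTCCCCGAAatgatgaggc
Irf8, GAS at -171, chr8:120736177-120736205, plus strand: caaaagtgatTTCTCGGAAagagagcgct
Igtp, GAS at -45, chr11:58199501-58199529, plus strand: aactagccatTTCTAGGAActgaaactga
Irgm2, GAS at -75, chr11:58214892-58214920, plus strand: aactagccatTTCCAGGAActgaaactga
Tgtp1, GAS at -88, chr11:48992316-48992344, minus strand: aactagccatTTCCAGGAAtcgaaactga
Cxcl10, ISRE at -213, chr5:92349083-92349112, minus strand: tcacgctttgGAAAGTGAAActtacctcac
Gbp2, ISRE at -59, chr3:142620594-142620623, plus strand: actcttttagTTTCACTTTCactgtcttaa
Socs1, ISRE at -77, chr16:10785594-10785623, minus strand: gccggaaagaGAAACCGAAAgcgggggtgg
In Igtp, Irgm2 and Tgtp1 an ISRE match begins 2 bases after the GAS match ends, at -34, -64 and -77.

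Each sample held between 17369020 and 18403790 reads on genes, and its 10 most abundant genes held 4.10% to 4.45% of them. Of 20432 genes and unnamed loci listed in both deposited tables, 13999 averaged 10 or more normalized counts (reads divided by a size factor for the sample) and were tested. The targeted gene Denr had 1407 and 1265 normalized counts in untreated control cells, 915 and 891 in untreated DENR KO cells, 1478 and 1441 in control cells with IFNγ and 967 and 978 in DENR KO cells with IFNγ. Every DENR KO sample was therefore below every control sample, with transcript still present, and the response of Denr did not pass the test of a difference (-0.02 ± 0.10, SE, adjusted p = 0.996, limma). The epithelial markers Epcam, Krt18, Krt20 and Cdx2 were not listed in both tables and the other 4 epithelial markers summed to 13.0 to 25.1 normalized counts, whereas 7 mesenchymal and fibroblast markers summed to 84252 to 93784. Leukocyte markers summed to 54.8 to 86.0 normalized counts, with Ptprc, Cd3e and Adgre1 not listed in both tables.

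DENR KO cells responded to IFNγ, with most induced genes shared with control cells and with a smaller rise. In control cells 414 genes were induced (2.96% of the genes tested, more than 1 on the log2 scale with an adjusted p under 0.05 in limma) and 76 were lowered (0.543%). In DENR KO cells 302 were induced (2.16%) and 21 were lowered (0.15%), or 7 and 8 without DENR KO untreated replicate 1 or 2. Of the induced genes, 284 were called in both genotypes, 130 in control cells alone and 18 in DENR KO cells alone. Among the 130, 124 also had a positive response in DENR KO cells, and only 9 passed the test of the difference itself, so that being called in control cells alone does not show a difference. The median response over all genes tested was -0.004 in control cells and -0.008 in DENR KO cells.

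Tested directly, the response of 62 genes was lower in DENR KO cells (0.443% of the 13999 genes tested, adjusted p under 0.05 in limma) and that of 3 was higher (0.0214%). At an unadjusted p under 0.05 the numbers were 479 and 323. All 62 rose in control cells, and the fitted response in DENR KO cells was above 0 for 61 of them. The exception was Ggcx, encoding γ-glutamyl carboxylase, a gene of low count. Of the 62 genes, 53 belonged to the 370 induced genes (2.64%), which were chosen by the mean response of both genotypes, a quantity that does not use the difference. The number of lower genes rests on single libraries, as it was 35 without control IFNγ replicate 2, 38 without DENR KO untreated replicate 1 and 83 without control untreated replicate 1. The higher genes were 8 without control IFNγ replicate 1, 11 and 9 without control untreated replicate 1 or 2, and 1 without DENR KO IFNγ replicate 2.

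**Figure D1:**
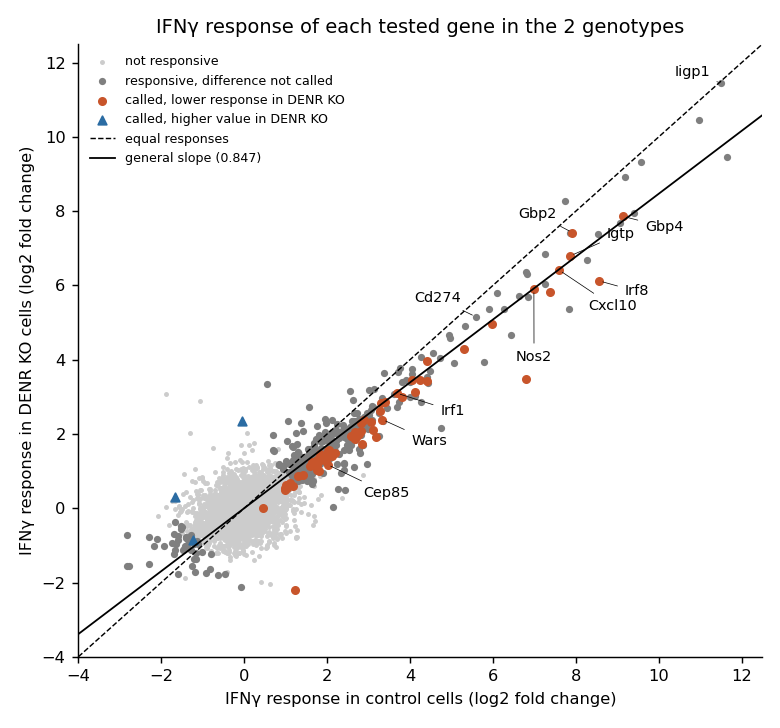
IFNγ response of each of the 13999 tested genes in control cells (x axis, log2 fold change) and in DENR KO cells (y axis, log2 fold change). Most of the 370 induced genes lie under the dashed line of equal responses and near the solid line with the general slope of 0.847.

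Cxcl10 (ENSMUSG00000034855, chr5:92346638-92348889), a chemokine that attracts T cells through CXCR3, had 217 and 215 normalized counts in untreated control cells and 230 and 191 in untreated DENR KO cells. With IFNγ it reached 40789 and 43451 in control cells and 17413 and 18453 in DENR KO cells. The untreated groups overlapped and the treated groups were well apart, and the response was 194-fold in control cells and 85.0-fold in DENR KO cells (difference -1.19 ± 0.10 on the log2 scale, SE, limma adjusted p = 1.02e-06).

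Wars (ENSMUSG00000021266, chr12:108860030-108894174), which encodes the tryptophanyl-tRNA synthetase, had the smallest adjusted p. It went from 1411 and 1340 normalized counts in untreated control cells to 13810 and 13893, and from 1446 and 1365 in untreated DENR KO cells to 7348 and 7376. Its untreated groups overlapped, its treated groups were far apart, and the difference was -0.94 ± 0.08 (adjusted p = 4.51e-07, limma). Irf1, the transcription factor whose promoter GAS is printed above, rose from 1400 and 1339 to 17689 and 17465 in control cells and from 1464 and 1389 to 12163 and 12270 in DENR KO cells. Its untreated groups overlapped, and its response was lower by 0.58 on the log2 scale (12.8-fold against 8.56-fold, adjusted p = 0.00013, limma).

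**Figure D2:**
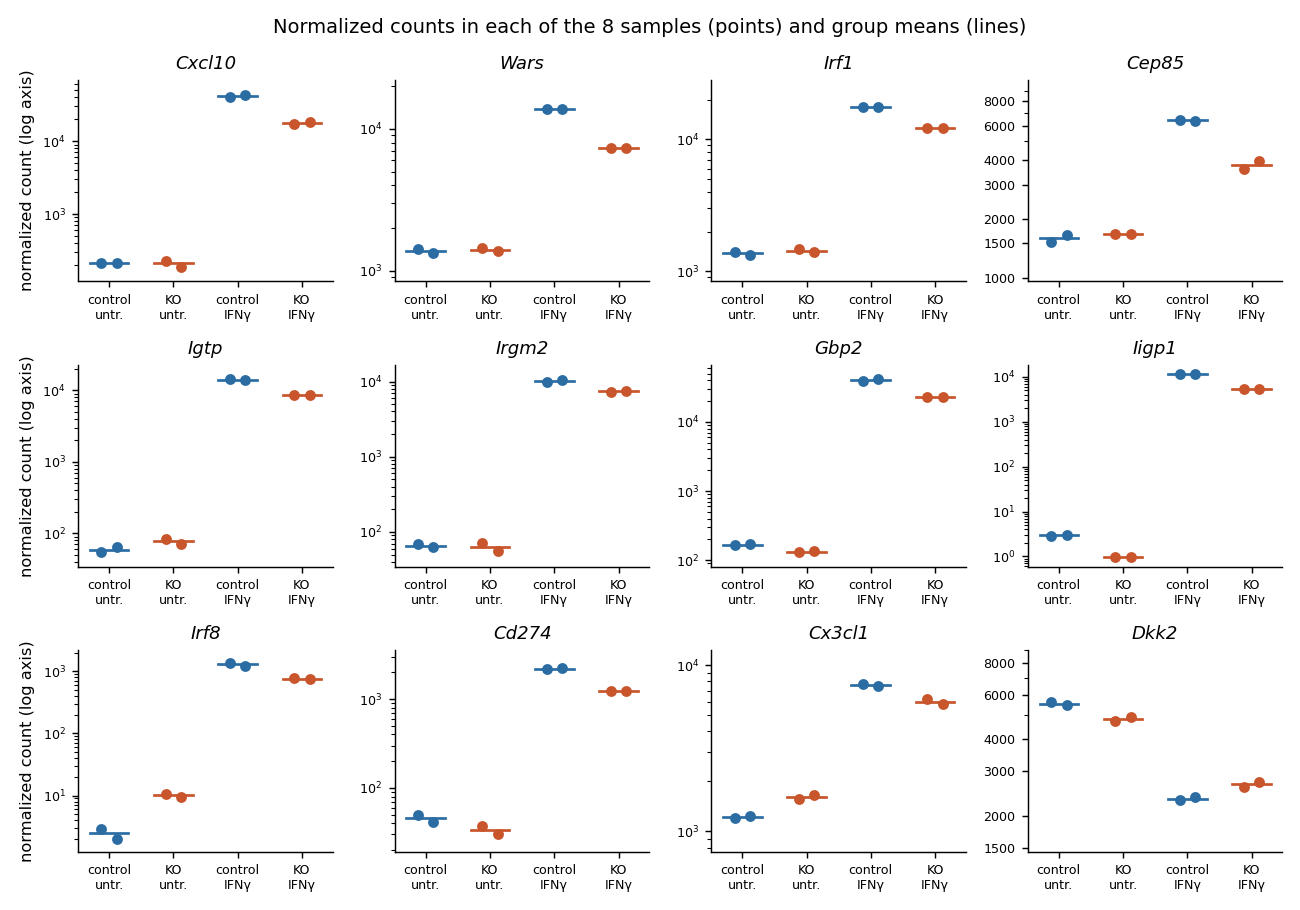
Normalized counts (log axis) of 12 genes in each of the 8 samples, with points for samples and lines for the group means, control in blue and DENR KO in orange. Cxcl10, Wars and Irf1 start alike and end apart, Irf8 and Cx3cl1 start higher in DENR KO cells, and Dkk2, a lowered gene, starts lower and ends higher there.

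How much of the response was kept can be stated on a log scale or as the gain in normalized counts, and the 2 give different pictures. A line through the origin, fitted to the 416 responsive genes with error in both genotypes (Deming regression), had a slope of 0.847, with an SD of 0.012 over the 4 pairings of a control with a DENR KO replicate. DENR KO cells therefore kept about 85% of the log2 response (0.850 over the 370 induced genes alone). The median share kept over the induced genes was 80.4% on the log2 scale and 66.4% as gain in counts. Among the 229 induced genes that averaged 100 or more normalized counts, the share of the log2 response was below 100% in 218 and at or above it in 11. Over all 370 induced genes it was at or above 100% in 44 (11.9%), and in 33 of the 141 that averaged less (23.4%). Gm4540 is not among these, because its control response was below 0 (-0.05) and its share is negative. Its response was the larger one in DENR KO cells.

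The 2 scales ran in opposite directions with the strength of induction. For the 79 genes with an average log2 response of 1 to 1.5, the median share was 75.2% on the log2 scale and 68.0% as gain in counts. For the 29 genes above 5 it was 86.4% and 56.4%. The median difference of the log2 responses was -0.34 in the first class, -0.40, -0.48 and -0.54 in the classes between, and -0.92 in the last. The most strongly induced genes thus had the highest share on the log2 scale and the lowest share in transcripts gained. These are descriptions over genes, which are not independent replicates.

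**Figure D3:**
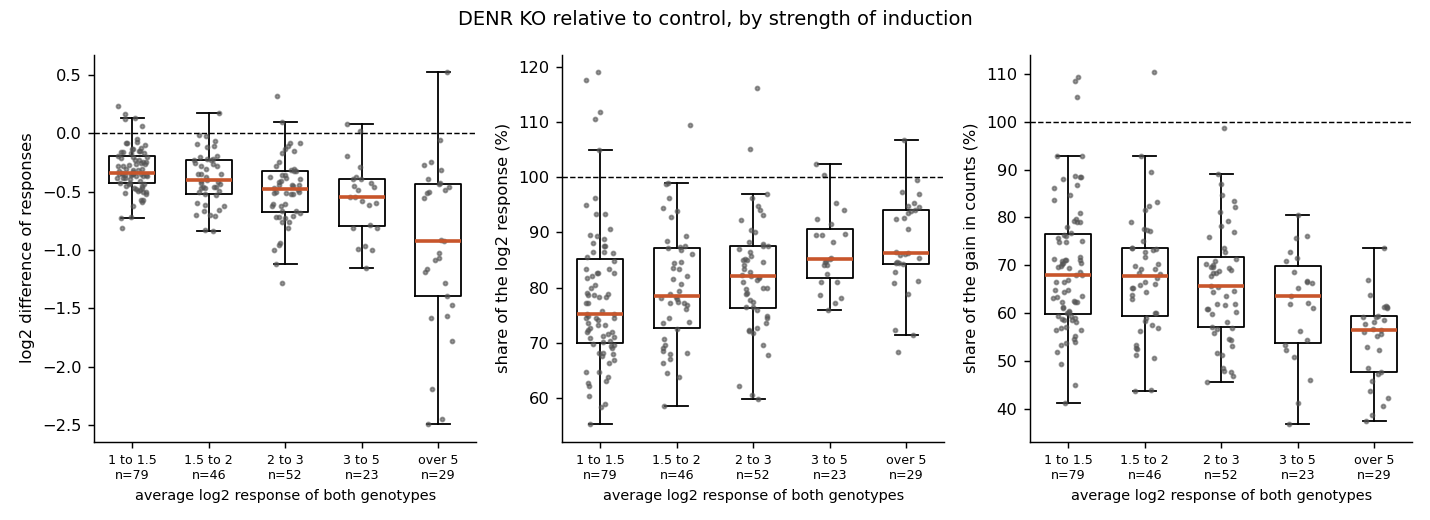
DENR KO relative to control for the 229 induced genes averaging 100 or more normalized counts, in 5 classes of average log2 response (x axes), as the log2 difference of responses, the share of the log2 response in percent and the share of the gain in counts in percent. Boxes give quartiles with the median in orange, points are genes, and the median gain falls from 68.0% to 56.4% while the median log2 share climbs from 75.2% to 86.4%.

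The receptor and its kinases, at the top of the pathway, showed no called difference of the response. None of the 7 receptor and Janus kinase genes tested was responsive, and none passed the test in limma, edgeR or DESeq2 (1 at an unadjusted p under 0.05). The 7 also hold Ifnar1, Ifnar2 and Tyk2, which serve the type I interferon receptor. The largest values were -0.25 ± 0.14 for Ifnar2 and -0.21 ± 0.10 for Ifngr2 (limma adjusted p = 0.933 and 0.847, unadjusted 95% intervals -0.52 to 0.02 and -0.41 to -0.02). Jak2 had 1031 and 1210 normalized counts in untreated control cells, 1061 and 1019 in untreated DENR KO cells, 2126 and 2223 in control cells with IFNγ and 1744 and 1775 in DENR KO cells with IFNγ. Its level with IFNγ was lower in DENR KO cells by 0.30 on the log2 scale (adjusted p = 0.0188, limma), but the difference of its response, -0.20 ± 0.10, did not pass (adjusted p = 0.916). Jak1 differed by 0.09 ± 0.08 and Ifngr1 by -0.07 ± 0.10, and neither passed (adjusted p = 0.996 for both, limma).

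Beside the calls of each list stand those over all genes tested, 0.443% lower, and over the 370 induced genes, 53 lower. Among the signal transducers, Stat3 was the single call of 6 STAT genes tested. It went from 890 and 839 to 5688 and 5324 normalized counts in control cells and from 837 and 966 to 3796 and 3727 in DENR KO cells, which is 61.6% ± 2.9 of the control gain (SE, n = 2 per group). Stat2, which acts with IRF9, kept 64.6% ± 3.0 and did not pass (adjusted p = 0.127, limma).

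Irf1 and Irf8 were the 2 calls of 8 interferon regulatory factors tested (0.443% of all genes and 53 of the 370 induced genes were called lower). All 8 had a negative difference (7205 of 13999 over all genes). Irf8, an interferon regulatory factor best known from myeloid cells, had 2.9 and 2.0 normalized counts in untreated control cells and 10.5 and 9.6 in untreated DENR KO cells, and 1378 and 1222 against 783 and 747 with IFNγ. Both its higher start (1.68 on the log2 scale) and its lower end (-0.76) enter the difference of -2.44 ± 0.29 (adjusted p = 2.81e-05, limma). Irf9, a partner of STAT2, kept 77.0% ± 4.9 of its gain and did not pass (adjusted p = 0.574).

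Of 12 feedback inhibitors tested, Socs1, Socs3 and Usp18 were induced and Socs1 alone was called. Socs1, a direct inhibitor of JAK kinases, went from 580 and 505 to 3406 and 3717 normalized counts in control cells and from 523 and 561 to 2133 and 2076 in DENR KO cells. It kept 51.7% ± 3.0 of the gain (difference -0.76 ± 0.11, adjusted p = 0.000328, limma). Socs3, which acts on cytokine receptors that use STAT3, kept 51.9% ± 7.2 and did not pass (adjusted p = 0.101, and 0.00893 without control untreated replicate 1). Usp18, a protease that removes ISG15, kept 75.3% at a mean of 40.8 normalized counts and did not pass (adjusted p = 0.996), and the other 9 were not responsive and did not pass.

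The chemokines had 5 lower calls among 12 genes tested, against 0.443% of all genes and 53 of the 370 induced genes. All 12 had a negative difference (7205 of 13999 over all genes). Their induced members kept a median of 54.4% of the control gain, from 38.7% for Cxcl11 to 79.3% for Cxcl16. Besides Cxcl10, the calls were Cxcl1, a neutrophil attractant that kept 54.4% ± 3.7, Ccl2 and Ccl7, which attract monocytes, and Cx3cl1, the membrane-bound ligand of CX3CR1. The call of Ccl7 was lost without control IFNγ replicate 2, DENR KO IFNγ replicate 1 or either DENR KO untreated sample (adjusted p up to 0.142, limma). Cxcl9, the other major CXCR3 ligand, had 3.9 and 0.0 normalized counts in untreated control cells and 1.9 and 4.8 in untreated DENR KO cells, and 6695 and 7482 against 2800 and 2949 with IFNγ. It kept 40.5% ± 2.5 of the gain, close to Cxcl10 with 42.3% ± 1.8, but its log2 response rests on a few untreated reads and did not pass (adjusted p = 0.98 in limma, 0.000296 with a pseudocount of 10).

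Tryptophan and other effector enzymes, with the tRNA synthetase gene Wars counted among them, kept the lowest share of the lists. Their median was 46.9% over 6 induced genes, with 3 lower calls of 7 tested, against 0.443% of all genes and 53 of the 370 induced genes. Wars kept 47.7% ± 0.4 and Nos2, the inducible nitric oxide synthase, 57.7% ± 0.4. Nos2 had 46.0 and 61.7 normalized counts in untreated control cells, 70.5 and 62.1 in untreated DENR KO cells, 6926 and 6842 in control cells with IFNγ and 4021 and 3987 in DENR KO cells with IFNγ. Ido1, which degrades tryptophan, had at most 2.0 normalized counts in every untreated sample and reached 932 and 930 in control cells and 312 and 388 in DENR KO cells, or 37.5% ± 4.1 of the gain. Acod1, which makes itaconate, was called with a mean of 60.8 normalized counts, and its call was lost in DESeq2 (adjusted p = 0.34) and without control IFNγ replicate 1 (0.0604 in limma).

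Guanylate-binding proteins, GTPases of cell-autonomous defence, kept a median of 54.5% of the control gain over 8 induced genes. They had 2 lower calls, Gbp4 and Gbp2, against 0.443% of all genes and 53 of the 370 induced genes. Gbp4 went from 16.6 and 13.9 to 9221 and 9118 normalized counts in control cells and from 15.2 and 21.0 to 4353 and 4416 in DENR KO cells (difference -1.29 ± 0.18, adjusted p = 0.000288 in limma and 0.053 in DESeq2). The immunity-related GTPases kept a median of 62.5% over 6 genes, with Igtp as the only call. Igtp, whose GAS is printed above, had 14190 and 13863 normalized counts in control cells and 8686 and 8577 in DENR KO cells with IFNγ, or 61.2% ± 0.8 of the gain. Tgtp1 had at most 2.9 normalized counts in every untreated sample and reached 4658 and 5073 in control cells and 2668 and 2840 in DENR KO cells, or 56.6% ± 3.0 of the gain, and did not pass (adjusted p = 0.996, limma). Irgm2, with 28 of 29 letters in common there, had 9816 and 10421 against 7357 and 7569, or 73.6% ± 2.5, and did not pass (adjusted p = 0.528, and 0.0386 without DENR KO untreated replicate 2). The annotated intervals of Igtp and Irgm2 overlap on the same strand, so reads could be divided between them in ways that were not tested here, and members of both GTPase families share sequence.

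The 10 induced genes of the MHC class I pathway kept a median of 75.9% of the control gain. Of 15 tested, 5 were called lower (Tap1, Nlrc5, Tapbp, H2-T22 and H2-T23), against 0.443% of all genes and 53 of the 370 induced genes. The 4 induced immunoproteasome genes kept 79.9%, with no call in limma, edgeR or DESeq2 among 5 tested (3 at an unadjusted p under 0.05). The class I heavy chains H2-K1 and H2-D1 and their light chain B2m rose by less than 1 on the log2 scale and are not among the 10, and they kept 62.4%, 64.8% and 62.4% of the gain, with no called difference (limma adjusted p = 0.482, 0.677 and 0.396). The lists were not tested against each other. Tap1, the peptide transporter, went from 571 and 600 to 12690 and 12337 normalized counts in control cells and from 528 and 595 to 8725 and 8761 in DENR KO cells, or 68.6% ± 1.1 of the gain. Its call and that of Nlrc5, the transactivator of MHC class I genes, were lost when single samples were left out. These were either control IFNγ sample, either DENR KO IFNγ sample or DENR KO untreated replicate 2 for Tap1 (adjusted p up to 0.176), and either control IFNγ sample, DENR KO IFNγ replicate 1 or DENR KO untreated replicate 1 for Nlrc5 (up to 0.139). Psmb8, a catalytic subunit of the immunoproteasome, kept 89.2% ± 17.9. Tapbp, the bridge between transporter and class I molecule, kept 77.4%, and its call was lost when any single sample but DENR KO IFNγ replicate 1 or control untreated replicate 1 was left out (adjusted p up to 0.228, limma). That of H2-T22 was lost without either control IFNγ sample, DENR KO IFNγ replicate 2 or DENR KO untreated replicate 1 (up to 0.221), and that of H2-T23 without DENR KO untreated replicate 1 (0.0826).

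Of 30 antiviral interferon-stimulated genes tested, 4 were called lower (Parp14, Samhd1, Dtx3l and Parp9), against 0.443% of all genes and 53 of the 370 induced genes. A negative difference was found in 29 (7205 of 13999 over all genes). The 23 induced members kept a median of 66.7%, close to the 66.4% of all induced genes. Parp14, an ADP-ribosyltransferase, went from 372 and 376 to 7104 and 7163 normalized counts in control cells and from 394 and 374 to 4164 and 4203 in DENR KO cells, which is 56.2% ± 0.4 of the gain. The call of Parp9 was lost without control IFNγ replicate 2, either DENR KO IFNγ sample or DENR KO untreated replicate 2 (adjusted p up to 0.156, limma). Of 14 NF-κB feedback genes and targets, Nfkbiz alone was called, with 56.2% ± 4.4 of the gain, and its call was lost without DENR KO untreated replicate 2 (adjusted p = 0.0558). Among 13 cell death genes none was called in limma, edgeR or DESeq2 (3 at an unadjusted p under 0.05), with Fas, a death receptor, at 53.3% ± 8.5 (difference -0.62 ± 0.26, adjusted p = 0.727, limma).

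None of 19 genes of cholesterol synthesis and none of 18 ATF4 targets tested was responsive, and none was called in limma, edgeR or DESeq2 (0 at an unadjusted p under 0.05). Their median differences were 0.02 and 0.00. Of 14 AP-1 and immediate early genes, Junb alone was called in limma and edgeR, and DESeq2 also called Jun (adjusted p = 0.0151, against 0.0616 in limma, or 0.0394 with no filter on low values). Junb had 2536 and 2451 normalized counts in untreated control cells and 3037 and 2962 in untreated DENR KO cells, and 5262 and 4936 against 4599 and 4308 with IFNγ, so it began higher and ended lower. The call of Junb was lost without DENR KO IFNγ replicate 2 or DENR KO untreated replicate 1 (adjusted p up to 0.0664).

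**Figure D4:**
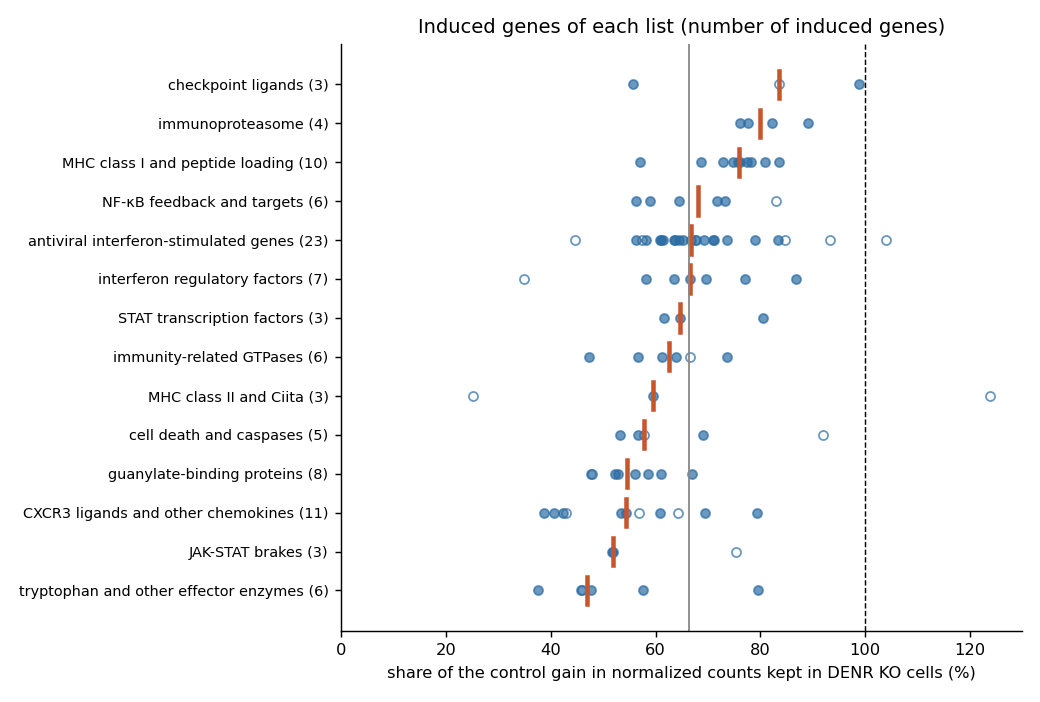
Share of the control gain in normalized counts kept in DENR KO cells (x axis, percent) for the induced genes of 14 lists (rows, number of induced genes in brackets). Filled points average 100 or more normalized counts and open points less, orange bars are list medians, the grey line is the median of all 370 induced genes (66.4%), and medians run from 46.9% for effector enzymes to 83.5% for checkpoint ligands. The last is the value of Icosl, which averaged 66.8 normalized counts, among 3 induced genes with Cd274 at 55.6% and Tnfrsf14 at 98.7%. That median ran from 62.6% to 93.8% when single samples were left out.

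Cd274, which encodes PD-L1, shows how far the scale matters for a single gene. It had 49.9 and 40.8 normalized counts in untreated control cells and 37.2 and 30.6 in untreated DENR KO cells, and 2182 and 2235 against 1244 and 1231 with IFNγ. The groups did not overlap in either treatment. It kept 92.4% ± 3.1 of the log2 response and 55.6% ± 0.8 of the gain in counts. The untreated level was -0.41 from control (adjusted p = 0.217, limma). The difference of the log2 response was -0.43 ± 0.18 and did not pass (adjusted p = 0.738, limma), while its level with IFNγ was lower by 0.84 (adjusted p = 0.000242).

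In most genes called lower, the genotypes differed more at the end than at the start. Of the 62, all 62 were lower in DENR KO cells with IFNγ, 55 of them at an adjusted p under 0.05 in limma. In untreated cells 10 were called, and the difference was positive in 44 of the 62. Choosing genes by a lower response favours a low level with IFNγ and a high untreated level in DENR KO cells. These signs are therefore not a separate result, and the counts were not set against those over all genes tested. The difference with IFNγ was the larger in 55 and the difference in untreated cells in 7, namely Ggcx, Acod1, Irf8, H2-T23, Ifi204, Cx3cl1 and Junb, which were chosen after their values were seen. A higher untreated level in DENR KO cells follows from how these 7 were chosen. Cx3cl1 had 1208 and 1238 normalized counts in untreated control cells, 1571 and 1647 in untreated DENR KO cells, 7709 and 7480 in control cells with IFNγ and 6259 and 5801 in DENR KO cells with IFNγ, with no overlap in either treatment.

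**Figure D5:**
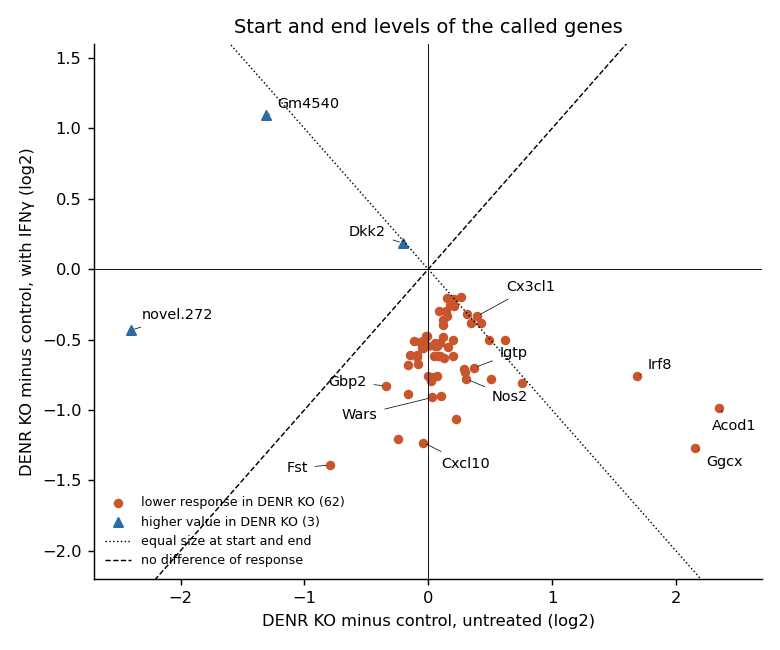
Difference of DENR KO from control (log2) in untreated cells (x axis) and with IFNγ (y axis) for the 65 called genes. Most of the 62 genes with a lower response lie near 0 on the x axis and below 0 on the y axis, and Irf8, Acod1 and Ggcx lie far to the right, higher in untreated DENR KO cells.

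Against the general slope, few genes stood apart. Ifi204, Cep85, Wars and Tubb3 lay below it, with a smaller response than the slope predicts (4 of the 416 responsive genes, against 0.0357% of all genes tested), and Gbp7, Irgm2, Gbp2, Gbp3, Iigp1 and Gm4540 lay above it (6, against 0.0429%). Gm4540 had no rise in control cells (-0.05 on the log2 scale) and 2.35 in DENR KO cells. At an unadjusted p under 0.05 the numbers among responsive genes were 54 and 22. Cep85, a centrosomal protein, went from 1532 and 1647 to 6445 and 6354 normalized counts in control cells and from 1673 and 1669 to 3616 and 3937 in DENR KO cells. It kept 58.4% ± 3.5 of the log2 response and lay 0.53 ± 0.08 log2 units from the slope, on the damped side (adjusted p = 0.00354, limma).

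Tubb3, a β-tubulin best known from neurons, went from 5827 and 5557 to 22073 and 22311 in control cells and from 6086 and 5967 to 14493 and 14476 in DENR KO cells, and kept 64.4% ± 3.0 of the log2 response. Ifi204, a DNA sensor of the interferon-inducible p200 family, began higher in DENR KO cells (754 and 775 against 550 and 586) and ended lower (1463 and 1596 against 1922 and 2056). No gene was below the slope without DENR KO IFNγ replicate 1 or without DENR KO untreated replicate 2, 1 was without control IFNγ replicate 2 or without DENR KO untreated replicate 1, 2 were without DENR KO IFNγ replicate 2 and 7 were without control untreated replicate 2. The direction of these 4 genes was kept when any sample was left out.

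The position of these genes differs between the scales. Deviations were not recomputed with the other estimators of the slope, and their test takes the slope as known. Gbp2, which stayed above the slope under every other alternative, had 164 and 171 normalized counts in untreated control cells and 130 and 135 in untreated DENR KO cells, and 39473 and 41823 against 22778 and 22942 with IFNγ. It kept 93.8% ± 1.1 of the log2 response but 56.1% ± 1.6 of the gain. Its level was lower in DENR KO cells at the start (-0.34, adjusted p = 0.00608) and lower still at the end (-0.83, adjusted p = 5.87e-09, limma), so that it passed the test of a lower response and also lay above the slope (adjusted p = 5.91e-05). The call of its lower response was lost in edgeR (0.0544), in DESeq2 (0.0789) and without control IFNγ replicate 2 (0.0843).

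Iigp1 is the extreme case. It had 2.9 and 3.0 normalized counts in untreated control cells, 1.0 and 1.0 in untreated DENR KO cells, 11369 and 11605 in control cells with IFNγ and 5497 and 5371 in DENR KO cells with IFNγ. It kept 47.3% ± 0.7 of the gain, while its log2 difference was -0.06 ± 0.21. The sign of that difference depends on the pseudocount, with 0.17 at a pseudocount of 0.5, -0.84 at 10 and 0.45 in edgeR. In edgeR and in DESeq2, Gbp3, Iigp1 and Irgm2 no longer passed above the slope, and the number above it was 3 without DENR KO IFNγ replicate 1 and 2 without DENR KO IFNγ replicate 2.

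Among induced genes averaging 100 or more normalized counts, few were not damped on the log2 scale, and none of these passed the test in the other direction in limma, edgeR or DESeq2 (0 at an unadjusted p under 0.05). Of the 11 that had a share of 100% or more (4.80% of 229), the most induced were Ciita, Sp110, Herc6, Tmem229b, Tnfrsf14 and Clic5. Tnfrsf14, encoding the receptor HVEM, had 128 and 136 normalized counts in untreated control cells, 100 and 142 in untreated DENR KO cells, 537 and 496 in control cells with IFNγ and 528 and 473 in DENR KO cells with IFNγ. The groups overlapped in both treatments, and it kept 98.7% ± 10.6 of the gain (log2 difference 0.10 ± 0.20, 95% interval -0.29 to 0.49).

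Ciita, the transactivator of MHC class II genes, had no reads in untreated DENR KO cells and 2.0 and 1.0 normalized counts in untreated control cells, so its log2 share depends on the pseudocount. With IFNγ it had 493 and 551 against 341 and 277, or 59.4% ± 6.9 of the gain. Sp110 kept 70.9% ± 6.5 and Herc6 71.6% ± 5.5 of the gain, with untreated levels of 28.6 and 35.4 against 45.0 and 46.8 normalized counts for Sp110. The fitted levels of these 3 genes were lower in DENR KO cells in both treatments, with no call in limma (adjusted p from 0.103 to 0.495), and Sp110 and Herc6 turned negative at a pseudocount of 10 (-0.07 and -0.02).

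Lowered genes were damped less clearly. The slope of the 46 lowered genes (0.329% of the genes tested) was 0.708 (SD 0.055 over the 4 pairings), but their median level was 17.8 normalized counts and the slope ran from 0.486 to 0.886 when single samples were left out. Dkk2, a Wnt inhibitor, was the only one of them called, with 5626 and 5446 normalized counts in untreated control cells, 4709 and 4902 in untreated DENR KO cells, 2310 and 2364 in control cells with IFNγ and 2587 and 2728 in DENR KO cells with IFNγ. Its log2 response was -1.24 in control cells and -0.85 in DENR KO cells (adjusted p = 0.0192, limma), a call lost when any single sample but DENR KO IFNγ replicate 1 or control untreated replicate 2 was left out (adjusted p up to 0.194). The other 2 higher calls were Gm4540, with a mean of 35.6 normalized counts, and an unnamed locus. The call of Gm4540 was lost without control IFNγ replicate 2, either DENR KO IFNγ sample, control untreated replicate 1 or DENR KO untreated replicate 2 (adjusted p up to 0.19, limma).

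Some strongly induced genes could not enter the test because only the table with IFNγ lists them, and every gene listed there had at least 2 reads over the 4 samples. Gm4841, an immunity-related GTPase-like gene, had 1681 and 1714 normalized counts in control cells and 791 and 841 in DENR KO cells with IFNγ, 48.1% of control. Serpina3f, a serine protease inhibitor, had 1349 and 1400 against 726 and 727, 52.9%. Gbp10 stood at 47.0%, Gvin1, a very large interferon-inducible GTPase, at 51.1% and Gm4951 at 45.9%. In all 8 such genes that averaged 100 or more in control cells, both DENR KO samples were below both control samples. Choosing genes by their level in control cells favours this order. The count was not set against that over other genes and is not a separate result. With the untreated values taken as 0, Gm4841 alone of the 8 passed the test of a lower level with IFNγ (-1.06 ± 0.28, adjusted p = 0.0398, limma). The others did not, with adjusted p from 0.104 for Serpina3f to 0.6 for Gm4070 (limma). The zeros lower the average level by which limma sets the expected spread. The SE can therefore be too wide (0.295 for Serpina3f), which was not tested, and not passing does not show equal levels.

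Promoters were compared with the share kept. Of the 229 induced genes averaging 100 or more normalized counts, 163 had a promoter of 300 bases in the RefSeq table. A GAS match was in 19.6% and an ISRE match in 27.6% of these, against 8.30% and 3.44% of all 32851 promoters. Of the 62 genes with a lower response, 39 had a promoter, of which 25.6% held GAS and 20.5% ISRE. For induced genes that kept under 55% of the gain, 50.0% of 26 promoters held GAS or ISRE, against 38.7% of 106 at 55% to 75% and 35.5% of 31 above 75%. In the same order, ISRE alone was in 30.77%, 29.25% and 19.35%, and GAS alone in 26.92%, 18.87% and 16.13%. A match to the NF-κB consensus, also searched, was in 30.77%, 13.21% and 19.35%, against 4.505% of all promoters. These classes were set after the values were seen, the shares were not tested, and a match is not evidence of binding.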

How the data were processed

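RNA was extracted with Trizol, selected with poly-T beads and sequenced on Illumina instruments. The authors deposited 2 tables, 1 per treatment, with a signal per sample: the read count divided by a size factor, called a normalized count here. Columns with the authors' own log2 fold changes and p-values were not used. The submitters' processing notes name HISAT2 (2.0.5), StringTie (1.3.3b), featureCounts (1.5.0-p3), DESeq2 (1.20.0) and the build mm9, without roles, while the deposited coordinates match GRCm38. Strand handling is not given in the sources used here.

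In every sample 100% of values were whole multiples of the smallest positive value (tolerance 0.001 reads), which recovered the reads. The 8 samples were scaled together by the median of ratios, so that levels could be compared across tables. limma (3.58.1, R 4.3.3; trend and robust) was fitted to log2(normalized count + 1) over the 13999 genes averaging 10 or more, with group means as terms, and p-values were adjusted over all genes by Benjamini-Hochberg. Log2 values understate changes of low genes. Responsive genes had an average response beyond 1 on the log2 scale with an adjusted p under 0.05. Deviation from the slope was tested as the DENR KO response minus the slope times the control response, with the slope taken as known. Shares of the gain are ratios of differences of group means, with delta-method SE. edgeR (4.0.16) and DESeq2 (1.42.0) on recovered reads were alternatives, with other scalings, pseudocounts, filters, slope estimators, replicate blocks and each sample left out. The test of a difference and the fit of the slope were checked on simulated data with known values, and the other steps were not.

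Genes named by rule were those of the study's pathway and those with the smallest p for a difference or a deviation. The rules also took the most induced undamped and most lowered genes, and 3 per list. All of these averaged 100 or more outside the pathway set. Further genes were named outside these rules, such as Tapbp, Samhd1, Dtx3l, Parp9, Ccl7 and H2-K1. Among these further genes, Acod1, Ggcx, Gm4540, Usp18 and Icosl averaged less than 100. The members and lists were chosen with earlier results of these data known. Each group has 2 samples, whose source as separate cultures is stated only as independent samples, so p-values measure the spread between these samples. A result on a withheld gene is not reported here.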

Additional observations from a re-analysis of the deposited data

Results flagged for a closer look

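The difference of the IFNγ response between genotypes was called for 62 genes in the lower and 3 genes in the higher direction by limma at an adjusted p under 0.05. Among the genes named in the text, 34 had a called difference on the log2 scale, which is what brought them here. Of these, 21 kept their call when any single sample was left out. Among the chemokines it was -1.19 for Cxcl10, -0.82 for Cxcl1, -0.73 for Cx3cl1 and -0.52 for Ccl2. Among transcription factors, transducers and inhibitors it was -0.58 for Irf1, -0.61 for Stat3 and -0.76 for Socs1, and -2.44 for Irf8, whose untreated levels were at most 10.5 normalized counts. For GTPases and enzymes it was -1.07 for Igtp, -1.29 for Gbp4, -0.94 for Wars and -1.09 for Nos2. For antiviral genes it was -0.81 for Parp14, -0.66 for Dtx3l, -0.52 for Samhd1 and -0.81 for Ifi204. Others were -1.0 for C1s1, -0.84 for Cep85, -0.70 for Tubb3, -0.70 for Enc1 and -3.43 for Ggcx. The other 13 lost the call without at least 1 of the samples, with -0.49 for Gbp2 and for Nlrc5, -0.45 for Tap1, -0.35 for Tapbp, -0.47 for H2-T22, -1.12 for H2-T23, -0.53 for Ccl7, -0.54 for Parp9, -0.61 for Nfkbiz, -0.46 for Junb, -3.33 for Acod1, 0.39 for Dkk2 and 2.4 for Gm4540.

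Signal was also found in 8 genes outside the test of a difference, which are listed only in the table with IFNγ and averaged 100 or more normalized counts in control cells. Their level in DENR KO cells was 48.1% of control for Gm4841, 52.9% for Serpina3f, 45.9% for Gm4951, 51.0% for F830016B08Rik, 47.0% for Gbp10, 51.1% for Gvin1, 59.9% for Gm4070 and 41.0% for Gm5970. The 8 genes were chosen by their level in control cells, which favours a lower level in DENR KO cells. With the untreated values taken as 0, only Gm4841 of the 8 passed a test of a lower level with IFNγ (adjusted p = 0.0398, limma). These zeros enter the spread that limma expects, so not passing does not show equal levels.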

How the results depend on the processing

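Counting error limits the genes that began with few reads, and 2 samples per group limit the others. Lower calls numbered 60 with TMM or the deposited scaling, 54 with total reads, 62 with a pseudocount of 0.5, 72 with 10, 59 in edgeR and 63 in DESeq2. Calls in the higher direction numbered 1 with a mean of at least 100 and 5 in DESeq2. With a mean of at least 100, responses were called for 273 induced and 20 lowered genes in control cells and 196 and 2 in DENR KO cells. The lowered genes were 34 and 4 with a pseudocount of 10 and 45 and 6 in DESeq2. The genes above the slope were 2 with a mean of at least 100, 3 with genes of 1 table kept at 0, and 2 in edgeR and in DESeq2.

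With a mean of at least 100 the slope was 0.864 over all responsive genes and over the induced ones, the median share of the log2 response was 0.817 and that of the gain 0.648, which was 0.649 with a pseudocount of 10. Other estimators of the slope gave 0.832 (least squares), 0.859 (Deming with intercept), 0.798 (median ratio), 0.827 (genes chosen by the control response) and 0.823 (genes chosen by control replicate 1, response from replicate 2), with 0.893 and 0.804 over induced genes for the intercept and the median ratio. With at least 10 normalized counts in both untreated groups, an alternative chosen after seeing the data, the slope was 0.836. The slope of the lowered genes was 0.788 without a filter on low values, 0.628 by least squares, 0.436 with genes chosen by the control response, 0.375 with genes chosen by control replicate 1 and 0.553 with an average response beyond 2, and it was reversed, at -0.42, with an intercept. The cause of these shifts was not tested.

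Leaving out single samples gave 35 to 83 lower and 1 to 11 higher calls, 390 to 426 induced and 64 to 99 lowered genes in control cells, and 265 to 312 and 7 to 27 in DENR KO cells. The slope ran from 0.830 to 0.865 (induced 0.838 to 0.868, lowered 0.486 to 0.886), the median share from 0.802 to 0.818 on the log2 scale and 0.649 to 0.663 as gain. There were 0 to 7 genes below and 2 to 6 above the slope. The share of called genes with the larger difference at the end was 84.6% and ran from 72.5% to 86.7%. The Denr difference ran from -0.64 to -0.49 untreated and from -0.60 to -0.57 with IFNγ.

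The labels do not say whether the replicate numbers pair the samples, and the correlations do not decide it. Between groups, the deviations of same-numbered samples correlated at 0.22, 0.23, 0.084, 0.00043, 0.024 and -0.016 over 10413 genes. The value for control samples with IFNγ was 0.22 with DENR KO samples with IFNγ and 0.23 with untreated control samples. A replicate block by number gave 91 lower and 10 higher calls with 7 genes below the slope, and a replicate block by genotype and number gave 108, 15 and 9. All 65 calls were among them in both.

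Some differences that were not called changed sign. The difference of Ciita was -0.54, of Herc6 -0.0225 and of Sp110 -0.0709 with a pseudocount of 10, that of Denr was 0.0026 with total reads, and that of Iigp1 was 0.17 with a pseudocount of 0.5, 0.45 in edgeR and 0.55 in DESeq2. With single samples left out, Clic5 ran from -0.0833 to 0.43, Denr from -0.0983 to 0.0562, Herc6 from -0.41 to 0.56, Ifngr1 from -0.17 to 0.0303, Psmb8 from -0.31 to 0.0115, Sp110 from -0.13 to 0.17, Tgtp1 from -1.49 to 0.46, Tnfrsf14 from -0.15 to 0.35 and Usp18 from -0.70 to 0.12.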
